A study of Mus musculus with 4 samples.

Results

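The proteasome genes were followed in RNA from the hippocampus of mice after anesthesia and surgery. Members were all rows of the gene count table whose symbol begins with Psma to Psmg and a digit, with processed pseudogenes marked -ps left out, which gave 50 of 31060 gene rows. They comprised 8 genes for the alpha ring of the core, 7 for the constitutive beta ring, 4 for the immunoproteasome and thymoproteasome beta subunits, 6 for the ATPases and 11 for the non-ATPases of the regulatory particle, 7 for assembly chaperones and 6 for activators and an inhibitor. The last row, Psmc3ip, matched the rule by its symbol only, because its product is a factor of meiotic recombination and no proteasome subunit.

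The surgery group held 2 libraries from wild-type mice with a labelled age of 12 months, taken on day 3 after exploratory laparotomy under sevoflurane. The control group held 2 libraries from naïve wild-type mice of the same labelled age at day 0, with neither anesthesia nor surgery before tissue collection. Anesthesia, incision and local anesthetic came together in the surgery group and cannot be told apart. It is not stated whether the 2 replicates of a group came from separate animals, so the p-values measure only the spread between these libraries, which may be technical.

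The proteasome degrades proteins that carry ubiquitin chains. Its barrel-shaped core is built of outer alpha rings, which gate the entrance, and inner beta rings, in which Psmb5, Psmb6 and Psmb7 carry the peptidase sites. A regulatory particle of ATPases and non-ATPase subunits binds ubiquitinated proteins, removes the ubiquitin, unfolds the chain and threads it into the core. Under interferon the catalytic subunits Psmb8, Psmb9 and Psmb10 replace Psmb5, Psmb6 and Psmb7 to form the immunoproteasome, which is abundant in immune cells. In neurons the proteasome takes part in the turnover of synaptic proteins, and shortfalls of activity lead the transcription factor Nfe2l1 to raise subunit genes together through antioxidant response elements.

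The start regions of 4 members are given as examples, and no relation of these sequences to the fold changes was tested. Psmb5 is a constitutive catalytic subunit, Psmb10 is the most abundant immunosubunit, and Psmc1 and Psmc6 are the ATPase genes with the lowest and the highest fold change. Each runs from 250 bases before the RefSeq gene start to 50 bases after it on GRCm38.p6, 5′ to 3′ on the gene's strand. Capitals mark a match to the antioxidant response element TGACNNNGC on either strand, and no capitals stand where none was found.
Psmb5, chr14:54617946-54618245, minus strand: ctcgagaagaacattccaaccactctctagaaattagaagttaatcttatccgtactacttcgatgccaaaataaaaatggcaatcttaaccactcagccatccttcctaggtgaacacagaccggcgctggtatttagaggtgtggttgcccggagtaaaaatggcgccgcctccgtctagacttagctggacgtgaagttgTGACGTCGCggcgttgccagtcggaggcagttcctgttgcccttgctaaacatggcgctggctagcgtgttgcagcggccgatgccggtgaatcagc
Psmb10, chr8:105938343-105938642, minus strand: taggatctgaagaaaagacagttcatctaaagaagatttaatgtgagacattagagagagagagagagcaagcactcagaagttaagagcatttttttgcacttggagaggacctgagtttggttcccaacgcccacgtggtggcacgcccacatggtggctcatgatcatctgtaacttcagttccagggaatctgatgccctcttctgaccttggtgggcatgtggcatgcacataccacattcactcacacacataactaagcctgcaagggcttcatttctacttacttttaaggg
Psmc1, chr12:100109952-100110251, plus strand: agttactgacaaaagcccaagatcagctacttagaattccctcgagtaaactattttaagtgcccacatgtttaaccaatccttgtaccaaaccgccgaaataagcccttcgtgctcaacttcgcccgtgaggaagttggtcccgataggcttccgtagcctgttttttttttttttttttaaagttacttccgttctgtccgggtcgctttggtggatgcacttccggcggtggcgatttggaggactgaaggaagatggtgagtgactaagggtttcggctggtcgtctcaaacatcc
Psmc6, chr14:45329574-45329873, plus strand: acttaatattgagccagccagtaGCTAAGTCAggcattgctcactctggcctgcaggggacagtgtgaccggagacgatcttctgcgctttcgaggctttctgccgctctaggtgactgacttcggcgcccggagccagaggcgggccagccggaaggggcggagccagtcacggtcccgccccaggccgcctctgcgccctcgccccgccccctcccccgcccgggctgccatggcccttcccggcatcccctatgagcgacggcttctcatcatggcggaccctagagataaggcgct
The match in Psmb5 began at position -47 from the gene start on the gene's strand, and that in Psmc6 lay at -227 in the reverse orientation. RefSeq promoters were matched for 42 of the 50 members. Of these, 6 held TGACNNNGC, namely Psmb5, Psmb6, Psmc6, Psmd9, Psmd12 and Psme4, and the motif occurred in 12.4% of all 32851 promoters of the same length. The interferon response element (GAAA, any pair of bases and GAAA again, searched on both strands) occurred in 5 members, namely Psmb3, Psmd4, Psmd9, Psme1 and Psmg4, and in 3.44% of all promoters. It was not among the letters of the Psmb10 window, which says nothing of sites elsewhere. The windows of Psmb8 and Psmb9 lay inside the genes, downstream of the start of the leading annotated transcript. They are not read here, but both genes stay among the 42 members counted. Windows of other members also lay inside the gene intervals, among them those of Psme1 and Psmd9, both named above for a motif. That of Psmd13 lay downstream of the start of its leading annotated transcript. These members stay counted too. The RefSeq start of Psmb10 also lies inside its gene, and its window still holds the start of the leading annotated transcript at 105938444.

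At the level of genes, no member differed between surgery and control at an adjusted p under 0.05. Proteasome genes were 0.261% to 0.279% of all counts per library, with library totals of 18002695 to 19318085 counts. Of the 50 members, 48 passed the filter on low counts. The 2 others were Psma8, an alpha subunit known from the testis, with 4 and 9 counts after surgery against 1 and 6 in control, and Psmb11, the thymoproteasome subunit, with 2 and 3 counts after surgery against 3 and 1 in control. All 4 libraries thus held both genes near the detection limit.

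In edgeR's quasi-likelihood test, 0 of 48 members passed the adjusted threshold, as did 0% of the 17236 genes tested. DESeq2 called 0 of the 38 members to which it gave an adjusted p, beside 0.759% of all genes with one, and limma-voom also called 0. At an unadjusted p under 0.05 edgeR had 0 members higher after surgery, where 4.33% of all tested genes were, and 1 member lower, where 5.63% of all genes were. The log2 fold changes of the members, as surgery over control on TMM-scaled counts, ran from -0.32 to 0.26 with a median of 0.02, and the median over all tested genes was 0.00. They were above 0 for 26 members and below 0 for 22.

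**Figure D1:**
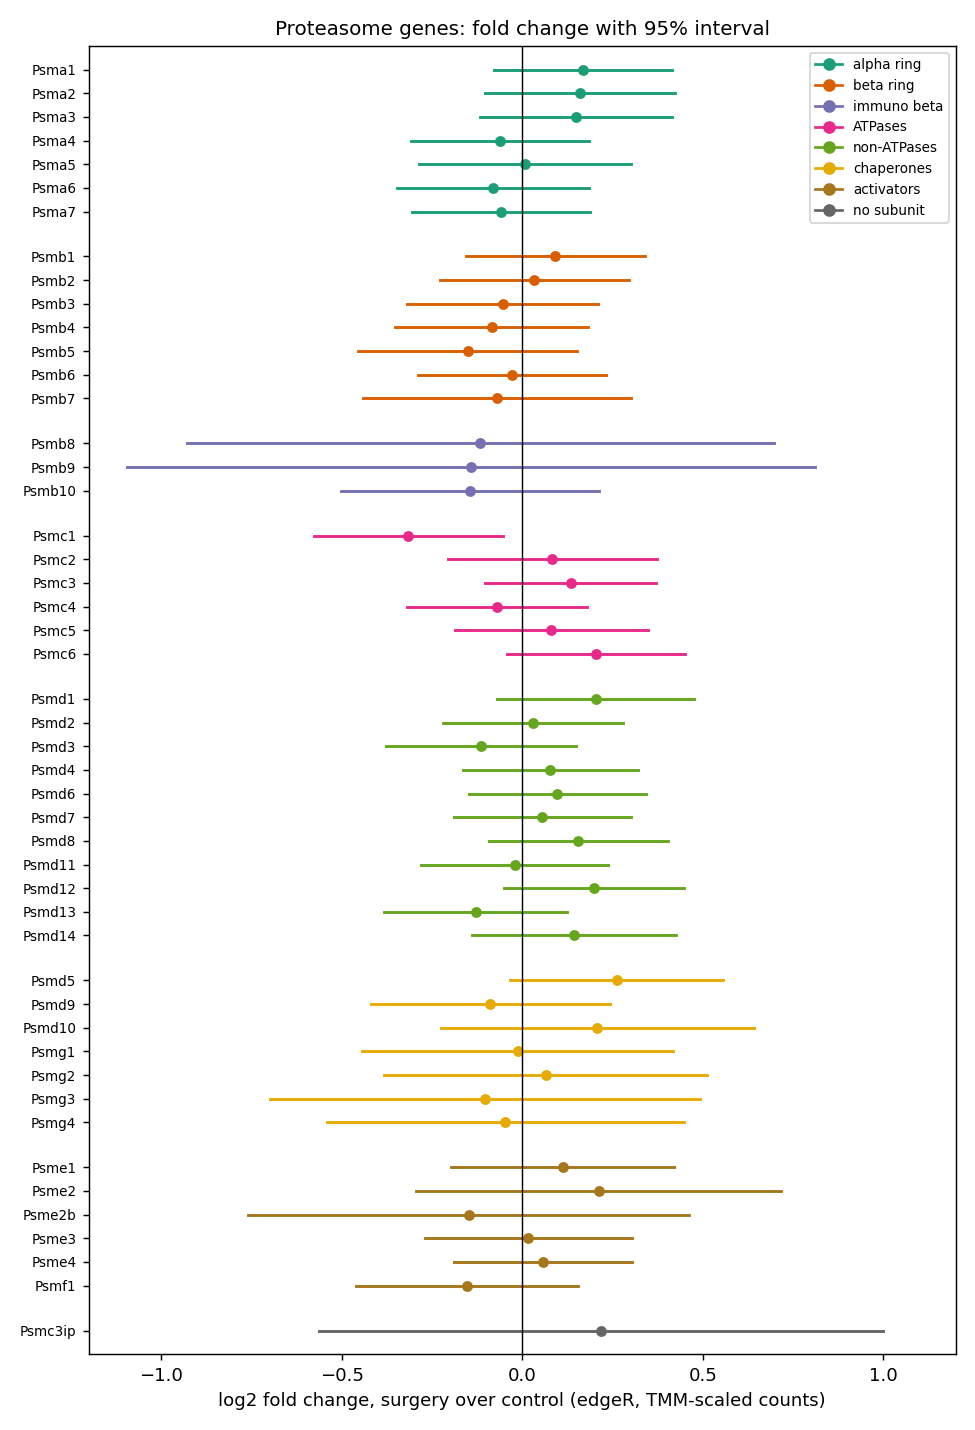
Log2 fold change of the 48 tested proteasome genes, surgery over control, by role. Points are edgeR estimates and lines their 95% intervals. Only the interval of Psmc1 lies wholly on one side of 0.

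The intervals give the size of difference that these libraries leave possible. For 47 of the 48 tested members the 95% interval of the log2 fold change stayed within ±1, that is within a 2-fold difference either way, the exception being Psmb9. It stayed within a 1.5-fold difference for 41 members, among them each of the 31 constitutive subunits of the core and regulatory particle. The median absolute difference between groups was 0.10 on the log2 scale, whereas the replicates of a group differed by a median of 0.14 after surgery and 0.12 in control. For 9 of 48 members the difference between groups exceeded the difference within both groups, and the same held for 28.1% of all tested genes.

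The groups did not overlap for 14 members. Both surgery libraries lay above both controls for 10 of the 48 members, or 20.8%, near the 20.3% of all tested genes. These were Psma1, Psma2, Psmc3, Psmc6, Psmd1, Psmd4, Psmd5, Psmd6, Psmd8 and Psmd12. Both lay below both controls for 4 members, or 8.33%, where 22.3% of all tested genes did. These were Psma4, Psmb10, Psmc1 and Psmd13. By library, 18 members had their highest level in surgery 1, 9 in surgery 2, 5 in control 1 and 16 in control 2, so the highest levels were spread over both groups.

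**Figure D2:**
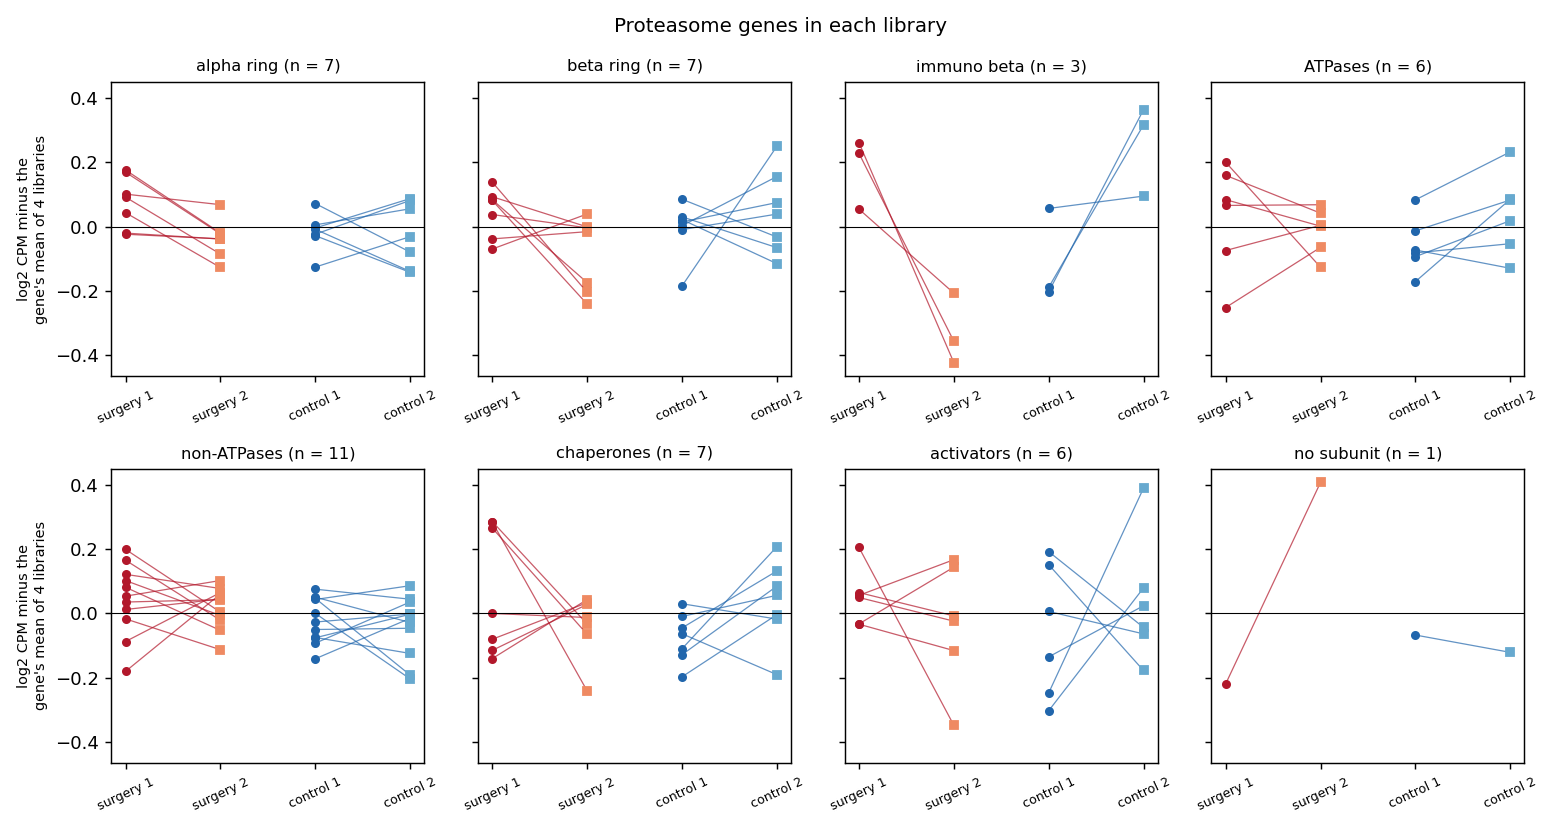
Level of each tested proteasome gene in each library, as log2 CPM minus the gene's mean over the 4 libraries, one panel per role, with lines joining the libraries of one group. The constitutive alpha, beta, ATPase and non-ATPase genes stay between -0.25 and 0.25, and the immunosubunits reach from -0.42 in surgery 2 to 0.36 in control 2.

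The core was much the same in both groups. CPM of the 14 constitutive alpha and beta genes summed to 900.5 and 826.0 after surgery and to 853.1 and 864.3 in control, so the surgery libraries held both the highest and the lowest sum. The median log2 fold change was 0.01 for the 7 tested alpha genes and -0.05 for the 7 beta genes. Psma1, an alpha ring subunit, had the highest value of its ring, with 74.5 and 72.8 CPM after surgery against 68.1 and 62.9 CPM in control. The groups of Psma1 did not overlap, and its log2 fold change was 0.17 (SE 0.11, adjusted p = 0.625). Psma6 was lowest in the ring, with 59.3 and 52.7 CPM after surgery against 57.4 and 61.1 CPM in control. Its groups overlapped, and its log2 fold change was -0.08 (SE 0.12, adjusted p = 0.853). The other alpha genes lay between these values, at -0.06 for Psma4 and Psma7 and 0.16 for Psma2.

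Among the constitutive beta genes, Psmb1, a subunit without a peptidase site, was highest, with 97.9 and 91.8 CPM after surgery and 93.2 and 84.8 CPM in control. Its log2 fold change was 0.09 (SE 0.11, adjusted p = 0.813), and its groups overlapped. The lowest was Psmb5, which carries the chymotrypsin-like site and lies on chromosome 14 at 54614119 to 54618022 of GRCm38. Psmb5 had 59.1 and 47.3 CPM after surgery against 56.0 and 62.2 CPM in control. Here surgery 2 was low and surgery 1 lay between the controls, and the log2 fold change was -0.15 (SE 0.14, adjusted p = 0.738). It was -0.32 without surgery 1 (adjusted p = 0.665), -0.22 without control 1, -0.07 without control 2, and 0.00 both without surgery 2 and with the GC offset.

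Psmb6, the caspase-like subunit, differed least of the catalytic subunits, with 49.4 and 53.3 CPM after surgery and 51.5 and 53.3 CPM in control (log2 fold change -0.03, SE 0.12, adjusted p = 0.953). Psmb7, the trypsin-like subunit, had 51.1 and 40.3 CPM after surgery and 40.9 and 55.2 CPM in control. Within each group its replicates thus differed by more than the groups did, and the log2 fold change was -0.07 (SE 0.17, adjusted p = 0.915). No constitutive beta gene had groups that did not overlap.

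Psmb8 and Psmb9 were low in all 4 libraries, and their differences between groups were smaller than those between replicates. Psmb8, the counterpart of Psmb5, was found with 45 and 28 counts after surgery and 33 and 46 in control, or 2.34 and 1.56 CPM against 1.75 and 2.49 CPM. Its log2 fold change was -0.12 (95% interval -0.93 to 0.70, adjusted p = 0.938). Psmb9, the counterpart of Psmb6, was found with 31 and 18 counts after surgery and 22 and 32 in control, with a log2 fold change of -0.14 (95% interval -1.10 to 0.81, adjusted p = 0.935). In both genes the highest library was control 2 and the lowest was surgery 2. With so few counts, a difference within these intervals was not detectable in Psmb8 or Psmb9, and its absence was not shown.

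Psmb10, the counterpart of Psmb7, was the only immunosubunit at more than 1 FPKM. Its levels were 18.8 and 15.6 CPM after surgery and 18.8 and 19.3 CPM in control, a log2 difference of -0.15 (SE 0.16, adjusted p = 0.795). Both surgery libraries lay below both controls, but surgery 1 and control 1 were equal to the digits given. With each library left out in turn Psmb10 ran from -0.28 without surgery 1 to -0.02 without surgery 2, and the GC offset brought it to 0.00. Psmb8 and Psmb9 changed sign, from -0.44 and -0.52 without surgery 1 to 0.16 and 0.17 without control 2, and were also above 0 without surgery 2. Psmb9 shares exon sequence with Tap1 on the opposite strand. The strand setting of the counting is not given in the sources used here, so reads of Psmb9 and Tap1 may be mixed. The same holds for Psmb8 with Gm20496, Psmb7 with Nek6 and Psma4 with AY074887, each on the opposite strand. It also holds on the opposite strand for Psma5 with 1700010K24Rik, Psme1 with Emc9, Psmd3 with Gm12356, Psmd9 with Gm26745 and Psmc3ip with Mlx. On the same strand, exons of Psmb5 overlap Mir686, those of Psme2b 9930111J21Rik1 and those of Psmg3 Gm26938.

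FPKM values are scaled for library size and for a gene length that is not given in the sources used here. That length was not the length of the leading transcript in every gene. In surgery 1 Psmb7 had 51.1 CPM but 14.9 FPKM, although a transcript of 1160 bases held 97.4% of its estimated counts. Ratios of FPKM between genes therefore depend on that length too. Psmb5 exceeded Psmb8 by 77.0 and 92.3 times in FPKM after surgery and by 97.3 and 76.2 times in control. Psmb6 exceeded Psmb9 by 60.0 and 103.9 times after surgery and by 86.3 and 60.2 times in control. The ratios of both pairs overlapped between groups. In FPKM Psmb7 exceeded Psmb10 by 1.36 and 1.28 times after surgery and by 1.08 and 1.43 times in control. The 2 genes were not as close in CPM, which is not scaled for length. There Psmb7 had 51.1 and 40.3 after surgery and 40.9 and 55.2 in control. Psmb10 had 18.8 and 15.6 CPM after surgery and 18.8 and 19.3 CPM in control. The 3 immunosubunits made up 10.3% and 9.74% of the FPKM of the 6 catalytic genes after surgery and 10.5% and 10.03% in control, most of it Psmb10.

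**Figure D3:**
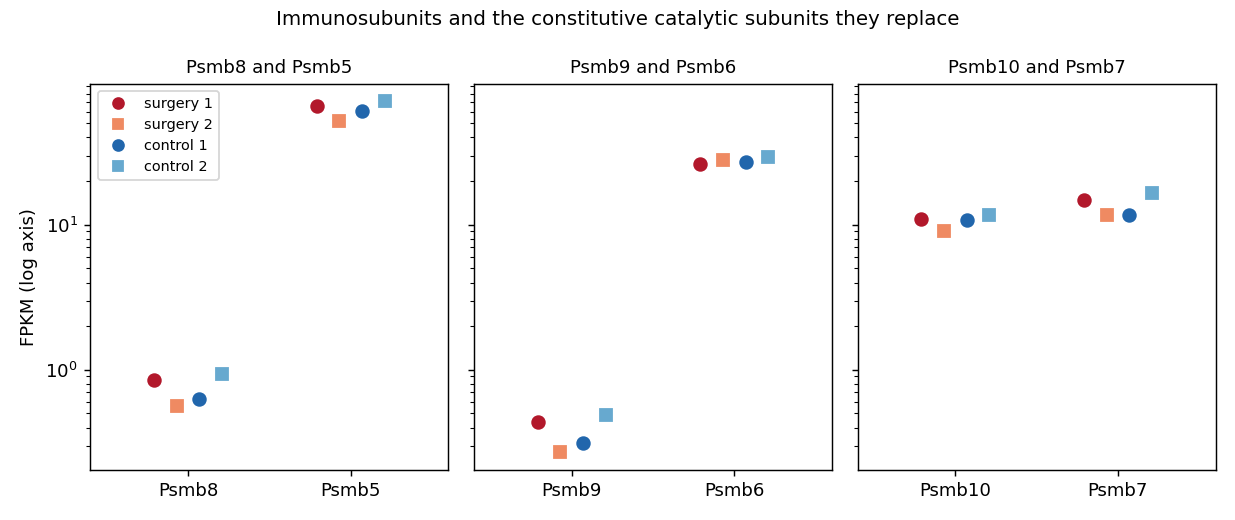
FPKM of the 3 immunosubunits and the constitutive catalytic subunits that they replace, on a log axis, with 1 point per library. Psmb8 and Psmb9 stay below 1 FPKM in all 4 libraries, whereas Psmb10 lies close to Psmb7 on this scale, which depends on the gene length used.

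Immunosubunits are typical of microglia and blood leukocytes, whose markers were read in the same libraries. The 12 microglial markers summed to 513.4 and 422.4 CPM after surgery and 474.4 and 445.7 CPM in control, and these sums overlapped. At an unadjusted p under 0.05 in edgeR, 0 of them were higher and 1 lower, where 4.33% and 5.63% of all tested genes were. Both surgery libraries lay above both controls for 0 and below for 3 of the 12, beside 20.3% and 22.3% of all tested genes. Of 10 leukocyte markers only 4 were tested, and their sum was 8.47 and 7.41 CPM after surgery against 4.83 and 5.62 CPM in control. All 4 had positive log2 fold changes, as did 8631 of the 17236 tested genes, and 0 of the 4 passed the adjusted threshold. At such low levels a gene can pass the count filter on the libraries of 1 group alone. The signs of the 4 are therefore not independent of the filter and are not read as a result. At an unadjusted p under 0.05 in edgeR 1 of the 4 was higher, beside 4.33% of all tested genes. It was Ccr2, a receptor of monocytes, with an unadjusted p of 0.00934. The part of these cells in the levels of Psmb8, Psmb9 and Psmb10 was not tested. In bulk tissue, fewer cells of a type and less RNA per cell cannot be told apart.

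The regulatory particle held the member with the smallest p. Psmc1, an ATPase that helps to open the gate of the core, lies on chromosome 12 at 100110154 to 100123405 of GRCm38. It had 77.5 and 88.3 CPM after surgery against 97.8 and 108.5 CPM in control, or 82.9 ± 7.60 and 103.1 ± 7.54 CPM (SD, n = 2 each). Both surgery libraries lay below both controls. The log2 fold change was -0.32 (SE 0.12, 95% interval -0.58 to -0.05), a difference of -19.6%, with an unadjusted p of 0.0228 and an adjusted p of 0.453 in edgeR. DESeq2 gave an unadjusted p of 0.0279 and an adjusted p of 0.373. Leaving out control 2 or surgery 1 took the unadjusted p to 0.191 and 0.0924, and leaving out surgery 2 gave a log2 fold change of -0.41 with an adjusted p of 0.0728.

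Psmc6, another ATPase of the same ring, had the highest fold change of the 6, at 84.6 and 78.0 CPM after surgery against 72.0 and 69.2 CPM in control. Both surgery libraries lay above both controls, and the log2 fold change was 0.20 (SE 0.11, adjusted p = 0.559). Psmc6 is also the tested member with the lowest GC content, at 37.0%, and an offset for GC content in each library brought its log2 fold change to -0.03, while that of Psmc1, with a GC content of 49.5%, was -0.33. Across all 17209 tested genes with a known GC content the log2 fold change correlated with GC content at a Spearman's rho of -0.45, and across the 48 members at -0.38. These points share the same 4 libraries, and genes are not independent replicates.

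Psmc3, with 111.0 and 111.2 CPM after surgery against 100.2 and 102.2 CPM in control, had replicates that nearly coincided (log2 fold change 0.13, SE 0.11, adjusted p = 0.693). It was named after its values were seen, and its exons overlap those of Slc39a13 on the opposite strand. The remaining ATPases, Psmc2, Psmc4 and Psmc5, had log2 fold changes from -0.07 to 0.08 and overlapping groups. As a group the ATPases summed to 533.4 and 516.1 CPM after surgery and 498.8 and 536.1 CPM in control, with a median log2 fold change of 0.08. The highest sum of the ring was in a control library.

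Of the 11 non-ATPases, 5 (45.5%) had both surgery libraries above both controls and 1 (9.09%) had both below, where 20.3% and 22.3% of all tested genes did. Their summed levels were 951.9 and 929.5 CPM after surgery and 908.4 and 898.7 CPM in control, with a median log2 fold change of 0.08 and 0 members at an unadjusted p under 0.05. The highest was Psmd1, a large scaffold subunit, at 117.3 and 102.5 CPM after surgery against 102.2 and 88.7 CPM in control. The lower surgery library of Psmd1 was barely above the higher control, and the log2 fold change was 0.20 (SE 0.12, adjusted p = 0.588). The exons of Psmd1 overlap those of Htr2b on the opposite strand and those of Gm21972, a coding gene, on the same strand.

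Psmd13 was the lowest non-ATPase, with 56.9 and 53.2 CPM after surgery against 59.3 and 61.1 CPM in control. Its log2 fold change was -0.13 (SE 0.11, adjusted p = 0.732), and its exons overlap those of Sirt3 on the opposite strand. The subunits that handle ubiquitin lay between these. Psmd4, a ubiquitin receptor, had 0.08 on the log2 scale (SE 0.11, adjusted p = 0.843), and Psmd14, the deubiquitinase of the particle, one of 0.14 (SE 0.13, adjusted p = 0.735). Psmd2, the subunit to which shuttle factors bind and the most abundant member by CPM, had 187.3 and 170.6 CPM after surgery and 173.7 and 176.8 CPM in control, a log2 difference of 0.03 (SE 0.11, adjusted p = 0.949).

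Assembly chaperones hold partly built particles and are not part of the finished proteasome. Psmd5, a chaperone of the ATPase ring, had the highest fold change of all members, at 75.7 and 60.7 CPM after surgery against 59.4 and 54.4 CPM in control. Surgery 1 stood apart, and surgery 2 exceeded the higher control by little. The log2 fold change was 0.26 (SE 0.13, 95% interval -0.03 to 0.56, adjusted p = 0.536). Its value was 0.41 without surgery 2 (adjusted p = 0.0709), 0.10 without surgery 1 (adjusted p = 0.998) and 0.15 with the GC offset. The lowest chaperone was Psmg3, with 3.48 and 3.95 CPM after surgery and 3.56 and 4.43 CPM in control (log2 fold change -0.10, SE 0.27, adjusted p = 0.924). Psmg1, which helps to assemble the alpha ring, was nearly the same in each library, at 8.31 and 8.24 CPM after surgery and 8.49 and 8.21 CPM in control.

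Activators bind the ends of the core in place of the regulatory particle. Psme1 and Psme2 form the interferon-inducible activator, Psme3 and Psme4 are nuclear activators, and Psmf1 is an inhibitor of the core in vitro. No gene of the 6 had groups that did not overlap, and the median log2 fold change was 0.04. Psme2 was highest, with 6.81 and 7.35 CPM after surgery and 5.31 and 6.92 CPM in control (log2 fold change 0.21, SE 0.23, adjusted p = 0.788). Psme2b, a close copy of Psme2 that can share its reads, had the opposite sign at -0.15 (SE 0.28, adjusted p = 0.887), so both values are uncertain. The lowest was Psmf1, at 31.1 and 29.4 CPM after surgery and 36.4 and 30.9 CPM in control (log2 fold change -0.15, SE 0.14, adjusted p = 0.738).

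In FPKM, the members differed far more from each other than between groups. Their order and range also depend on the gene length behind the FPKM. The 31 constitutive subunits of the core and regulatory particle had mean levels from 9.36 FPKM for Psmd11 to 88.5 FPKM for Psmb1, a 9.45-fold range around a median of 24.4 FPKM. Their median was 24.9 FPKM after surgery and 23.6 FPKM in control. In the order of all 50 members, 40 of the 49 pairs of neighbours had overlapping ranges over the 4 libraries and did not differ beyond their spread. Psmb1 stood apart at the top, with 84.1 to 94.2 FPKM against 60.1 to 75.1 FPKM for Psmc5. Chaperones had means from 1.33 FPKM for Psmg3 to 14.0 FPKM for Psmg2, and Psmc3ip had 1.15 FPKM. Psmb8, Psmb9, Psma8 and Psmb11 closed the order, at 0.74, 0.38, 0.16 and 0.03 FPKM.

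**Figure D4:**
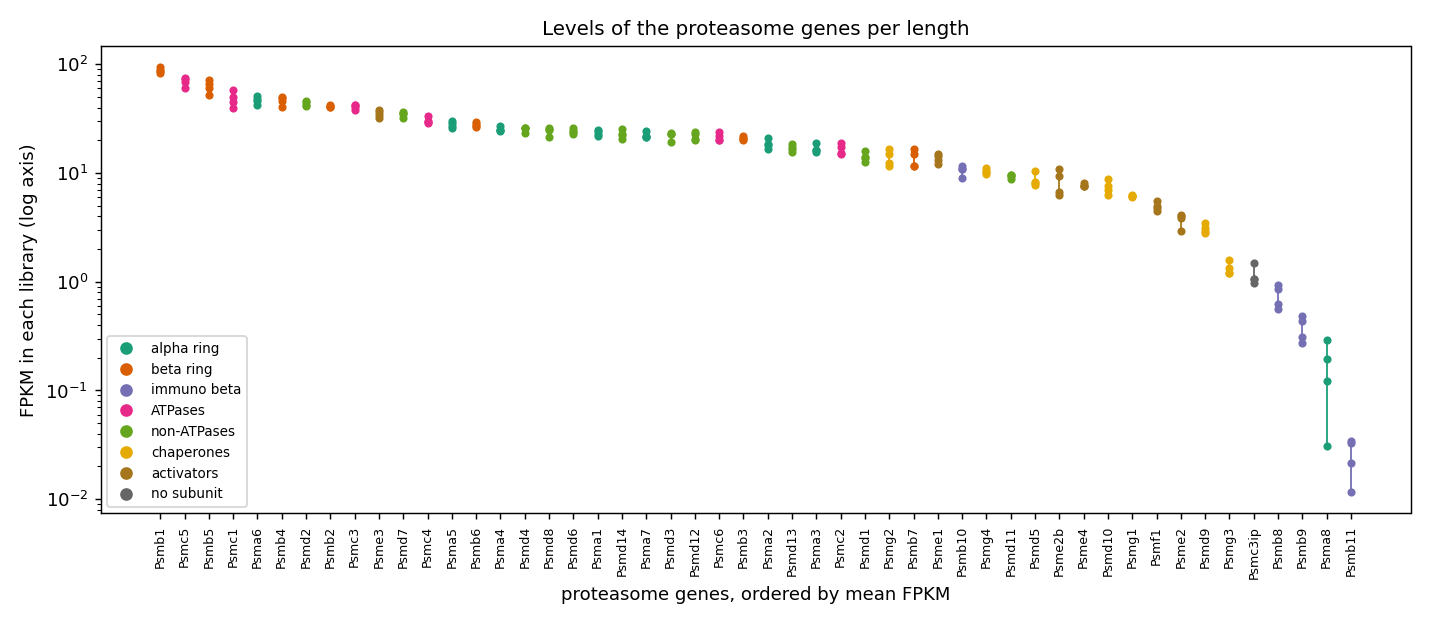
FPKM of all 50 members in each library, on a log axis, ordered by mean FPKM and coloured by role. Constitutive subunits fill the upper part, from 9.36 to 88.5 FPKM, and Psmb8, Psmb9, Psma8 and Psmb11 lie at the bottom.

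The transcript table held 221 annotated transcripts of the members, of which 178 were tested. In 37 of the 50 genes a single transcript made up over 50% of the gene's estimated transcript counts in every library, and 0 of the 50 leading transcripts had an unadjusted p under 0.05 in edgeR. Over all 178 transcripts 4 reached that p, beside 6% of the 65665 transcripts tested, and 0 reached an adjusted p under 0.05, as did 0% of all transcripts. DESeq2 called 4 of the 194 to which it gave an adjusted p, beside 4.16% of all transcripts with one. Counts in this table were estimates that summed to 3.88 times the gene counts.

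The transcripts at an unadjusted p under 0.05 were minor forms. Psmc1-204, a processed transcript without an annotated coding sequence, had 154 and 237 estimated counts after surgery against 13 and 29 in control, which was 2.64% and 3.85% of the Psmc1 counts against 0.18% and 0.38%. Its log2 fold change was 3.24 (SE 0.70, edgeR adjusted p = 0.55, DESeq2 adjusted p = 0.0111), while the main coding transcript Psmc1-201 had -0.33 (SE 0.16). Psma4-207, a coding transcript, was listed at 0 in both surgery libraries against 249 and 233 estimated counts in control, or 5.99% and 5.48% of the Psma4 counts. It had an edgeR adjusted p of 0.407 and a DESeq2 adjusted p of 2.09e-06, and the main transcript Psma4-201 had a log2 fold change of 0.13 (SE 0.18).

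Psmd8-201, a coding transcript, had 25 and 14 estimated counts after surgery against 219 and 411 in control (log2 fold change -3.99, edgeR adjusted p = 0.453, DESeq2 adjusted p = 0.000258). Psmd4-204, a retained-intron form, had 23 and 30 after surgery against 130 and 99 in control (log2 fold change -2.07, edgeR adjusted p = 0.58). In both genes the main coding transcripts also moved between replicates. The share of the main Psmd8 transcript was 85.2% and 64.4% after surgery and 75.2% and 29.1% in control. The fourth transcript that DESeq2 called, Psmd2-206, was not among those edgeR tested and rested on 1 library, with 5 and 2789 estimated counts after surgery and 0 in both controls.

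**Figure D5:**
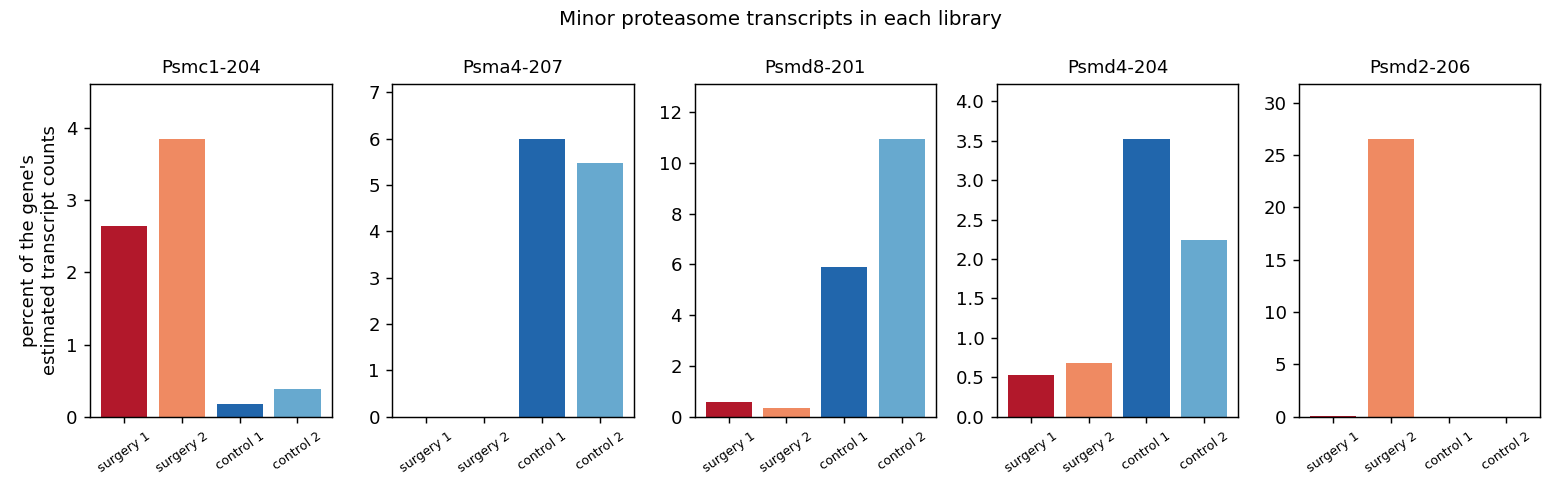
Share of a gene's estimated transcript counts held by 5 minor transcripts, in percent, with 1 bar per library and an axis from 0 in each panel. Psmc1-204 is higher in both surgery libraries, Psma4-207, Psmd8-201 and Psmd4-204 are higher in both controls, and Psmd2-206 is present in surgery 2 alone at more than 1%.

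Genes that work with the proteasome were read from lists of the same pathway. Of 16 subunits and partners with other names, edgeR placed 2 higher and 1 lower with an unadjusted p under 0.05, where 4.33% and 5.63% of all tested genes were, 0 passed the adjusted threshold, and the median log2 fold change was 0.04. Adrm1, a ubiquitin receptor of the regulatory particle, had 44.9 and 48.4 CPM after surgery against 56.8 and 58.5 CPM in control (log2 fold change -0.30, SE 0.12, adjusted p = 0.459). AI314180, also named Ecpas and known as a proteasome adaptor, had 0.28 on the log2 scale (SE 0.11, adjusted p = 0.469). Usp14, a deubiquitinase that binds Psmd2, had 149.2 and 128.7 CPM after surgery against 121.8 and 107.2 CPM in control (log2 fold change 0.28, SE 0.12, adjusted p = 0.489). Uchl5, the other deubiquitinase that binds reversibly, had 0.23 (SE 0.15, adjusted p = 0.624).

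Of 8 genes that control proteasome transcription, an unadjusted p under 0.05 was reached by 1 with a positive and 2 with a negative difference, beside 4.33% and 5.63% of all tested genes. The median log2 fold change was -0.23, both surgery libraries lay below both controls for 4 of the 8 (22.3% of all tested genes) and above for 2 (20.3% of all), and 0 passed the adjusted threshold in edgeR or DESeq2. Nfe2l1, the activator of subunit genes, had 228.3 and 263.2 CPM after surgery against 279.7 and 325.2 CPM in control (log2 fold change -0.30, SE 0.13, adjusted p = 0.488). Both surgery libraries lay below both controls. Ngly1, the enzyme that removes sugar chains from Nfe2l1 in its activation, had 0.36 on the log2 scale (SE 0.14, adjusted p = 0.462), and Keap1, which holds back the related factor Nfe2l2, one of -0.36 (SE 0.11, adjusted p = 0.407). Mafk, a small partner of both factors, had -0.34 (SE 0.17, adjusted p = 0.538).

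Ubb, a stress-inducible polyubiquitin gene, had 506.6 and 733.0 CPM after surgery against 895.4 and 937.0 CPM in control, a log2 fold change of -0.56 (SE 0.18). Both surgery libraries lay below both controls, and its adjusted p was 0.407 in edgeR and 0.0450 in DESeq2. Its coding repeats are nearly identical to those of other ubiquitin genes, so its reads may be shared. Uba6, a ubiquitin-activating enzyme, had 33.7 and 28.1 CPM after surgery against 24.0 and 23.8 CPM in control (log2 fold change 0.37, SE 0.15, adjusted p = 0.461).

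Of 12 genes of the interferon response and MHC class I loading, which use the peptides that immunoproteasomes make, an unadjusted p under 0.05 was reached by 1 with a positive difference and by 0 with a negative one, beside 4.33% and 5.63% of all tested genes. That gene was B2m, the light chain of MHC class I, with 91.1 and 92.2 CPM after surgery against 75.0 and 72.5 CPM in control (log2 fold change 0.31, SE 0.11, adjusted p = 0.42). The 9 endothelial markers tested also had positive log2 fold changes, and their part in the B2m value was not tested. Erap1, which trims the peptides, had 0.22 (SE 0.18, adjusted p = 0.704), Tap1, a peptide transporter, -0.21 (SE 0.25, adjusted p = 0.808), and H2-K1, a class I heavy chain, 0.12 (SE 0.15, adjusted p = 0.812). None of the 12 passed the adjusted threshold in edgeR, DESeq2 or limma-voom.

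The libraries differed in ways other than the groups. Genes of the mitochondrial genome took 6.32% to 6.61% of counts after surgery and 4.51% to 5.25% in control. Choroid plexus markers summed to 5273 and 6240 CPM after surgery and to 208.4 and 4903 CPM in control, and oligodendrocyte markers to 5039 and 3557 CPM after surgery and 4965 and 5172 CPM in control, so that control 1 and surgery 2 each stood apart in 1 list. The 9 endothelial markers summed to 309.1 and 310.0 CPM after surgery and 236.3 and 296.6 CPM in control, with 9 positive log2 fold changes. At an unadjusted p under 0.05 in edgeR 2 of them, Kdr and Emcn, were higher and 0 lower. Of the 8 oligodendrocyte markers 0 were higher and 2 lower at that p, where 4.33% and 5.63% of all tested genes were. DESeq2 called 1 oligodendrocyte marker, beside 0.759% of all genes with an adjusted p. All 10 markers of hippocampal excitatory neurons were present, at sums of 5578 and 6536 CPM after surgery and 6985 and 5914 CPM in control. The part of tissue composition in the values of the proteasome genes was not tested.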

How the data were processed

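RNA of the hippocampus was sequenced from 2 surgery and 2 control libraries, grouped by the sample titles. The authors used HISAT2 against mm10 and HTSeq, named as version 5.4.2, and deposited raw counts and FPKM per gene and estimated counts per transcript. The tool behind the transcript table is not given in the sources used here. Those deposited FPKM values served to order levels and in alternatives. The members and lists were chosen with earlier results of these data known.

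The quasi-likelihood test of edgeR 4.0.16 (R 4.3.3) was applied to gene counts after TMM scaling and filterByExpr (minimum 10, total 15), and estimated transcript counts likewise after rounding. Benjamini-Hochberg adjustment ran over all 17236 genes or 65665 transcripts, with a threshold of 0.05. CPM are TMM-scaled. Promoters came from RefSeq (GRCm38.p6), and positions, GC content and overlaps from GENCODE on GRCm38, which held 31010 of 31060 IDs.

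Values per library are given for the 6 catalytic subunits, the highest and lowest fold change of each role, and members at an unadjusted p under 0.05. Up to 4 genes of each pathway list are named by smallest p, some of them with the fold change but no values per library. Other members with values were chosen after the values were seen. Part of the list of ubiquitin genes is not reported here.

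Alternatives were DESeq2 1.42.0, limma-voom (limma 3.58.1), RLE factors, 2 other count filters, a replicate block, leaving out each library, log2 FPKM in limma-trend (pseudocount 1 or 0.1, or a minimum FPKM of 1), a GC offset, totals without mitochondrial genes, and counts summed from transcripts. The methods were tested on simulated data.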

Additional observations from a re-analysis of the deposited data

How the results depend on the processing

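No member passed an adjusted p of 0.05 at the gene level under any of the alternatives run, so no call was gained or lost. With 2 libraries a group, modest differences are beyond these data. Calls over all genes at that threshold differed between alternatives. They numbered 395 of 29672 with no filter on low counts, 39 of 17236 with the replicate block and 68 of 8962 in DESeq2. With limma-voom, RLE factors or the GC offset they numbered 0 of 17236. Members higher at an unadjusted p under 0.05 numbered 1 with the GC offset (Psmc3, log2 fold change 0.24). There was 1 with no filter on low counts and 1 with the replicate block, Psmd5 in both. Members lower numbered 0 with gene counts summed from transcripts. The matching shares over all genes are not given here, so these counts are not read as a result about the members. It is not stated what the replicate numbers mark, and the deviations of same-numbered libraries correlated at 0.13. With the replicate block Psmc1 had an adjusted p of 0.211 and Psmd5 of 0.334. The GC offset changed the sign of 12 members, the largest of them Psmc6.

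The median log2 fold changes of the groups moved by more than the spread between replicates in the following cases, whose cause was not tested except where given. Against 0.01 the alpha ring had 0.0839 with DESeq2 and 0.0845 with no filter, where Psma8 enters the median, and 0.0771 with counts summed from transcripts. With the GC offset the activators had -0.0197, the ATPases -0.0325 and the non-ATPases 0.046. The non-ATPases had 0.0614 with counts summed from transcripts, 0.0588 on log2(FPKM + 1) and 0.0609 on log2(FPKM + 0.1), with or without the minimum FPKM. Leaving out libraries gave ranges of 0.00965 to 0.0846 for all members, -0.0639 to 0.0958 for the alpha ring, -0.0514 to 0.0413 for the beta ring, -0.00473 to 0.151 for the ATPases, 0.0438 to 0.106 for the non-ATPases, -0.0352 to 0.0709 for chaperones and 0.00528 to 0.116 for activators. For transcripts DESeq2 had 4 of the 194 members with an adjusted p under 0.05, beside 4.16% of all transcripts with one. It had 8 at an unadjusted p under 0.05, a count given without the share over all transcripts and not read as a result about the members.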

Other observations

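Gm4950, annotated as a pseudogene of Psmb3 and outside the rule for members, was named after its values were seen. It had 76 and 72 counts after surgery against 29 and 38 in control, or 3.95 and 4.01 CPM against 1.54 and 2.05 CPM, and both surgery libraries lay above both controls. Its log2 fold change was 1.15 (SE 0.31), with an unadjusted p of 0.00346 and an adjusted p of 0.368 in edgeR. Over the alternatives with 2 libraries a group, the adjusted p ran from 0.0367 with no filter on low counts to 0.711 on log2(FPKM + 1). DESeq2 gave Gm4950 no adjusted p. With no filter 395 of 29672 genes had an adjusted p under 0.05, where the main fit had 0 of 17236. Psmb3 itself had a log2 fold change of -0.05 (SE 0.12), so the parent gene and its copy did not move together, and how reads were shared between them was not tested. The pseudogenes Psmb6-ps, Psmb6-ps2 and Gm6787 had at most 3 counts in any library.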
